A study of Homo sapiens with 6 samples.

Results

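The genes CD274, VTCN1, ULBP1 and ULBP2 encode surface ligands that cytotoxic lymphocytes read on a target cell. They were taken by symbol from the deposited table of mitoxantrone against DMSO, in which all 4 were found among 4546 genes. The cells were A549, an established human lung adenocarcinoma line. In 3 libraries the cells had received 50 nM mitoxantrone for 48 hours, a topoisomerase II poison of the anthracenedione class. In the other 3 they had received the solvent DMSO, diluted 1 in 1000, for the same time. Total RNA was sequenced, and the series title places the work in immunogenic senescence of lung cancer. The data cover 1 cell line, 1 dose and 1 time, and the labels do not say whether the libraries came from separate cultures, so the spread between them may be technical. The cells were a bulk population, in which fewer cells making a transcript and less of it per cell cannot be told apart.

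PD-L1, the product of CD274, binds PD-1 on T cells and restrains them, and interferon gamma is its best known inducer, through JAK and STAT proteins and the transcription factor IRF1. VTCN1 encodes B7-H4, another inhibitory member of the B7 family. ULBP1 and ULBP2 belong to the ligands of NKG2D, an activating receptor of NK cells and of cytotoxic T cells, and are known to appear on stressed, infected or transformed cells. The transcription factor ATF4, a mediator of the integrated stress response, is a known driver of ULBP1 transcription.

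Library totals ran from 16681380 to 21781220 reads, and the genes of the table held between 16.9% and 17.3% of each. Every gene in the table had an absolute log2 fold change of at least 1.00 and an adjusted p of at most 0.0497 in the authors' own test on these libraries. A second test on the same reads is therefore no independent evidence of a change, and in edgeR's quasi-likelihood test 100% of the 4546 genes passed an adjusted p of 0.05, 58.9% higher and 41.1% lower with mitoxantrone. A gene that is not in the table may have changed less, varied more or been too low, and its level cannot be read here. Of the lung epithelial markers looked for, 3 of 7 were in the table. KRT8, KRT19 and CDH1 were all higher with mitoxantrone (2.17-, 13.2- and 2.02-fold), beside 58.9% higher over the table. Their summed level was 638.0 to 725 FPKM with DMSO and 1497 to 1612 with mitoxantrone, mostly KRT8 (means of 676 and 1381). FPKM is reads scaled by gene length and library total.

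The promoters of CD274, ULBP1 and ULBP2 are shown because the reads of these genes were ample, ULBP1 and ULBP2 are neighbours on chromosome 6 that moved in opposite directions, and CD274 moved with ULBP1. Each line gives the 250 bases before the transcript start, from RefSeq on GRCh38.p14, with all 4 genes matched by symbol. The stretches are chr9:5450292-5450541, chr6:149963693-149963942 and chr6:149941764-149942013, all on the plus strand. Capitals mark matches on either strand to 9 short motifs.
CD274: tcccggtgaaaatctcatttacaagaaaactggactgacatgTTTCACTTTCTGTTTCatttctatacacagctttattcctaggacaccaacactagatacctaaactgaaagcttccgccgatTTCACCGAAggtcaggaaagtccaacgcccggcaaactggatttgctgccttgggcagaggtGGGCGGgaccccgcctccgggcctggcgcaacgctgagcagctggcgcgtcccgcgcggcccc
ULBP1: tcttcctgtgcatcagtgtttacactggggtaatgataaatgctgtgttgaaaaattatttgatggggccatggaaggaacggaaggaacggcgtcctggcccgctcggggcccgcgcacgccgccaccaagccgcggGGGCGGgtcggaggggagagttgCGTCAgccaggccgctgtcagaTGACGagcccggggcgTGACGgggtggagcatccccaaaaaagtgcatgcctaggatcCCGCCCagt
ULBP2: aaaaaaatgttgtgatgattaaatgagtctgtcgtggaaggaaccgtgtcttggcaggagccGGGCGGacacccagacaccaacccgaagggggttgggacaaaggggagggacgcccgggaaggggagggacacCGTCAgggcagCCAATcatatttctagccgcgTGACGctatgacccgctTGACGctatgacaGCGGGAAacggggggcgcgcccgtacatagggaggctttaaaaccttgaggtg

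The motifs searched, by name and letters, were a TATA-type box (TATAAA), the core of a CRE (TGACG), an NF-Y-type box (CCAAT), an E-box (CACGTG), an AP-1 site (TGANTCA), an E2F-type site (GCGGGAA), a GAS-type site (TTCNNNGAA), a GC box (GGGCGG) and an ISRE-type site, searched by its name with 2 free bases between its repeats. TGACG, the core of sites bound by CREB and ATF factors, occurred 3 times before ULBP1 and 3 times before ULBP2. Of the 35116 promoter stretches of the same length, 21.2% held it and 1.01% held it 3 times or more. It was absent from the CD274 stretch and occurred once before VTCN1. The CD274 stretch held 2 ISRE-type matches, read on the minus strand, which overlap each other at bases 208 to 199 and 202 to 193 before the start. ISRE sites are bound by interferon regulatory factors, and 3.02% of promoters held this pattern. CD274 also had 1 GAS-type match, TTCACCGAA, a pattern of STAT sites found in 6.57% of promoters. ULBP2 alone of the 4 had the E2F-type match, which 5.52% of promoters held. These are matches of letters, not measured binding sites.

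ULBP1 was the most abundant of the 4 genes in DMSO and fell most with mitoxantrone. Its normalized counts, which are reads divided by a size factor for the library, were 503, 540 and 451 in DMSO 1 to 3 and 21.8, 28.2 and 19.4 in mitoxantrone 1 to 3. The groups lay far apart, with the lowest DMSO library above every mitoxantrone library. The mean went from 498 ± 44.6 to 23.1 ± 4.57 (SD, n = 3), so 4.64% of the DMSO level was left. The log2 fold change was -4.43 ± 0.16 SE (edgeR, adjusted p = 1.3e-26). Among the 1869 genes lower with mitoxantrone it ranked 117 by size of change. ULBP1 (ENSG00000111981) lies at 150285143 to 150294846 on the plus strand of chromosome 6 in the deposited coordinates, whose build is not named.

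ULBP2 (ENSG00000131015; chromosome 6, 150263136 to 150270371, plus strand) rose. Its normalized counts were 35.2, 48.3 and 44.0 with DMSO and 102, 90.3 and 110 with mitoxantrone, again without overlap. The mean rose 2.37-fold, from 42.5 ± 6.70 to 101 ± 9.97 (SD, n = 3). The log2 fold change was 1.25 ± 0.19 SE (edgeR, adjusted p = 9.4e-08). This was a small rise for this table, ranked 2157 among the 2677 higher genes. With edgeR TMM scaling, computed on the listed genes alone, the ULBP2 value was 0.99, and that scaling moved the median gene by -0.26. When the null was a change of 2-fold or less (edgeR, glmTreat), which 80.6% of the table passed, ULBP2 had an adjusted p of 0.039. The table already held only genes past 2-fold on the same reads, so this is no independent evidence of the size. ULBP2 ends 14771 bases before ULBP1 begins in the deposited coordinates.

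CD274 (ENSG00000120217; chromosome 9, 5450503 to 5470566, plus strand) fell. Normalized counts were 257, 175 and 171 in DMSO 1 to 3 and 24.2, 23.7 and 24.5 in mitoxantrone 1 to 3. DMSO 1 stood above DMSO 2 and 3, while the mitoxantrone libraries were nearly equal. The mean went from 201 ± 48.9 to 24.1 ± 0.394 (SD, n = 3), which left 12.0% of the DMSO level. The log2 fold change was -3.05 ± 0.20 SE (edgeR, adjusted p = 7.9e-18), and -2.83 without DMSO 1. The coefficient of variation within DMSO was 24.3%, against 6.63% from read counting alone. Within mitoxantrone it was 1.63%, below the 21.5% that counting alone gives for 20 to 24 reads, so the small SD does not measure how well the level is known. From the 686 and 65 reads of the groups the ratio of DMSO to mitoxantrone was 8.35, with an exact 95% interval of 6.47 to 10.9 that covers counting error only.

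VTCN1 (ENSG00000134258; chromosome 1, 117686209 to 117753556, minus strand) went from close to 0 to a low level. The DMSO libraries had 0, 1 and 2 reads and the mitoxantrone libraries 13, 12 and 8. Every mitoxantrone library was above every DMSO library, but the whole comparison rests on 36 reads. With 0 reads, DMSO 1 allows up to 2.57 normalized counts or 0.0459 FPKM. The ratio of mitoxantrone to DMSO was 13.9, with an exact 95% interval of 4.36 to 70.8 for counting error. The fitted log2 fold change was 3.63 ± 0.72 SE (edgeR, adjusted p = 1.6e-05), against 2.57 ± 0.60 in the authors' deposited table, and it was 4.44 without DMSO 3. VTCN1 did not have 10 reads in 3 libraries, and a filter at that level removes it.

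**Figure D1:**
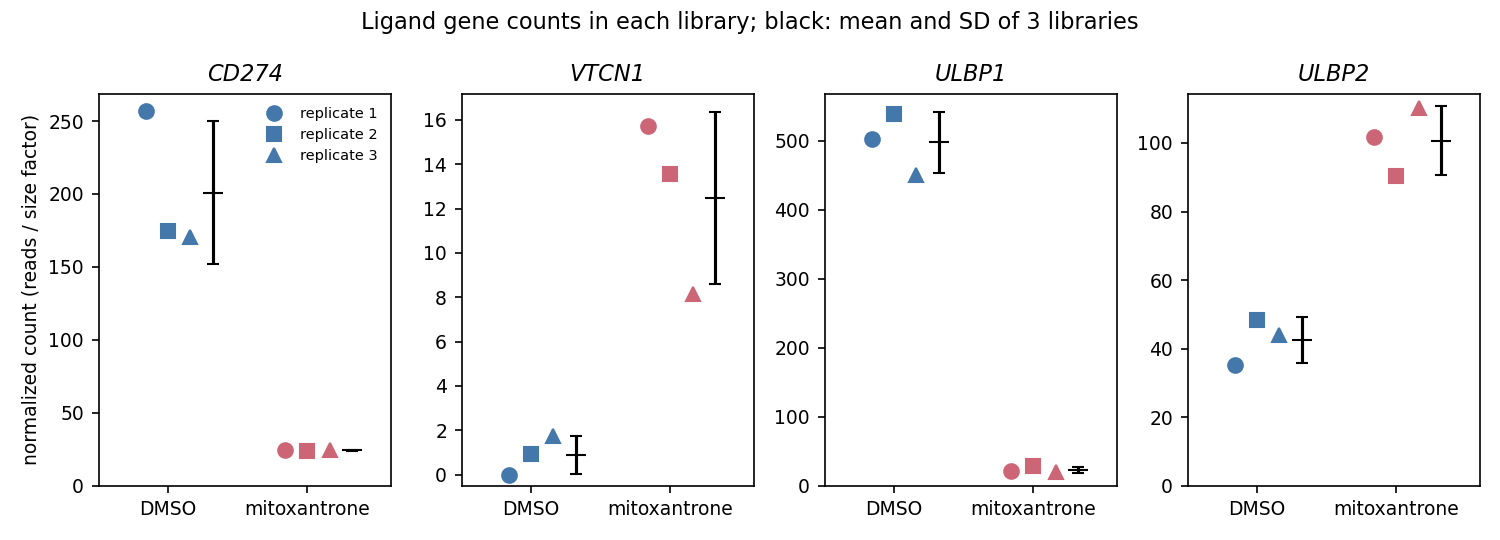
Normalized counts (reads divided by size factor, linear axes that differ between panels) of CD274, VTCN1, ULBP1 and ULBP2 in each of 3 DMSO and 3 mitoxantrone libraries, with the group mean and SD in black. In each panel the groups do not overlap; CD274 and ULBP1 are lower and VTCN1 and ULBP2 higher with mitoxantrone.

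The groups did not overlap for 4 of the 4 genes, as was the case for 98.3% of the table, so this count says nothing particular about them. 2 of the 4 were higher and 2 lower. For CD274, ULBP1 and ULBP2 the authors' deposited log2 fold changes were -2.96, -4.33 and 1.22, within 0.10 of the edgeR values given above.

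Per unit of length, the order of the 4 genes changed between the groups. With DMSO it was ULBP1 at 8.45 ± 0.69 FPKM, CD274 at 2.61 ± 0.64, ULBP2 at 1.68 ± 0.25 and VTCN1 at 0.017 ± 0.015 (SD, n = 3). No neighbours in that order overlapped in their libraries' values or in their counting intervals. With mitoxantrone ULBP2 led at 3.75 ± 0.38 FPKM. ULBP1 followed at 0.37 ± 0.07, CD274 at 0.29 ± 0.006 and VTCN1 at 0.21 ± 0.06. The libraries' values of neighbours did not overlap here either, but the counting intervals did, between ULBP1 and CD274 and between CD274 (0.228 to 0.377) and VTCN1 (0.141 to 0.289). ULBP1 and CD274 differed by 0.073 FPKM, no more than the larger SD of 0.074, and CD274 and VTCN1 by 0.083, above the larger SD of 0.062. The order of ULBP1, CD274 and VTCN1 with mitoxantrone thus held between libraries, while the counting intervals of neighbours overlapped. Overlap of intervals is not a test of a difference, and none was run on these levels.

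**Figure D2:**
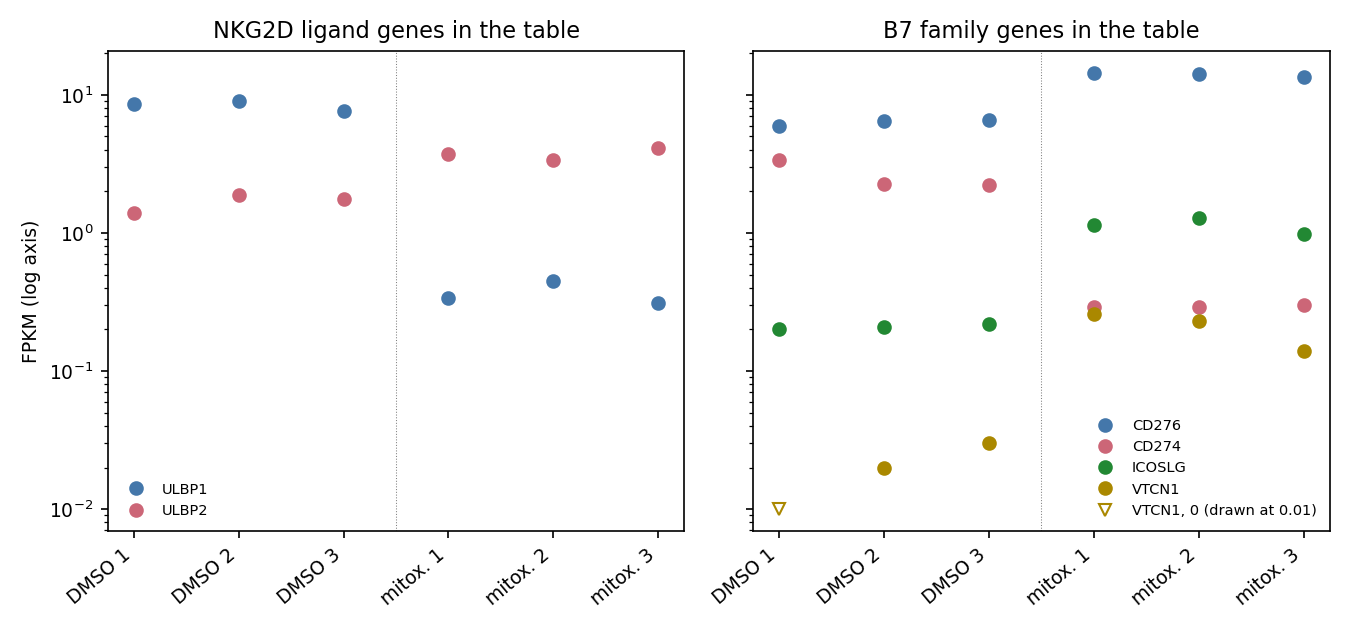
FPKM on a log axis in each library for the NKG2D ligand genes (left) and B7 family genes (right) found in the table; the open triangle is VTCN1 in DMSO 1, listed at 0 and drawn at 0.01. ULBP1 is above ULBP2 in the 3 DMSO libraries and below it in the 3 mitoxantrone libraries, and CD274 falls while CD276 and ICOSLG rise.

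The ratio of ULBP1 to ULBP2 inside a library does not depend on how libraries are scaled. ULBP1 made up 93.5%, 91.8% and 91.1% of the reads of both genes in DMSO 1 to 3. In mitoxantrone 1 to 3 its share was 17.6% (Wilson 95% interval 11.5% to 26.2%), 23.8% (16.7% to 32.8%) and 15.0% (9.79% to 22.2%). The lowest DMSO interval began at 88.5%, so the shares were far apart beyond counting error in each library. On the log2 scale, with 0.5 added to each count, the ratio went from 3.55 ± 0.25 to -2.11 ± 0.42 (SD, n = 3), a difference of -5.65. The exact two-sided permutation test gave p = 0.10, the smallest that 3 against 3 libraries allow, and 0.10 after adjustment over the 2 ratios tested. The pair was chosen knowing that its members moved in opposite directions, so that direction is a description. The summed level of both genes went from 10.1 ± 0.766 to 4.12 ± 0.308 FPKM.

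**Figure D3:**
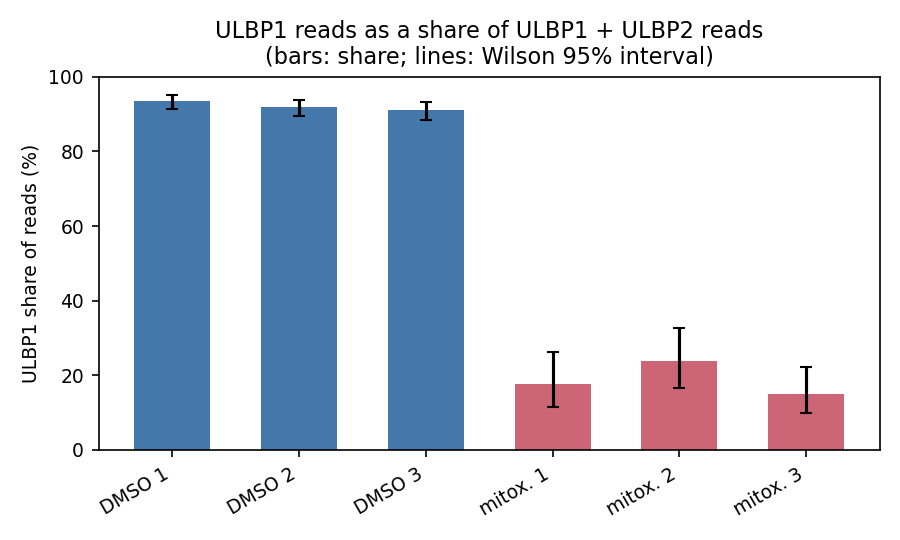
Bars give ULBP1 reads as a percentage of ULBP1 plus ULBP2 reads in each library, with Wilson 95% intervals for counting error. The share runs from 91.1% to 93.5% in the DMSO libraries and from 15.0% to 23.8% in the mitoxantrone libraries.

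ULBP genes are close relatives, and reads from shared stretches can be lost or misplaced in counting. In GENCODE 29 transcripts, 11.9% of the 100-base windows of ULBP2 also occurred in another gene. Its partners, ranked on windows of 50 bases, were RAET1L and then RAET1G, further NKG2D ligand genes. For ULBP1 the partners at 50 bases were the pseudogene RAET1K and ULBP3. The share of 100-base windows was 1.15% for ULBP1 and 0% for CD274 and VTCN1. With windows of 150 bases, the length of 1 read, it was 4.25% for ULBP2 and 0% for ULBP1. The part of this sharing in the ULBP2 count was not tested. No annotated gene overlapped any of the 4 in GENCODE 29. RAET1K itself was lower, from 19.4 to 7.50 mean normalized counts.

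The other NKG2D ligand genes, MICA, MICB, ULBP3, RAET1E, RAET1G and RAET1L, were not in the table, which leaves 2 of 8 listed, 1 higher and 1 lower. Of 10 B7 family genes 4 were listed, 3 higher and 1 lower. Their median on the log2 scale was 1.87, beside 1.20 over the table. CD276, which encodes B7-H3, was the highest of them and rose 2.35-fold, with 616, 683 and 679 normalized counts with DMSO and 1622, 1543 and 1478 with mitoxantrone (log2 fold change 1.23 ± 0.08 SE; edgeR, adjusted p = 3.2e-18). ICOSLG, the ligand of the costimulatory receptor ICOS, rose 5.72-fold, from 30.9, 32.5 and 32.8 to 186, 204 and 159 (2.51 ± 0.17). The 3 other listed genes of the family, of which VTCN1 rested on 36 reads, were higher, while CD274 was lower. Its level was 56.3%, 34.6% and 33.9% of that of CD276 per length in DMSO 1 to 3 and 2.00%, 2.06% and 2.22% in mitoxantrone 1 to 3. The PD-L2 gene PDCD1LG2, beside CD274 on chromosome 9, was not listed, nor were CD80 and CD86.

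Of 16 other ligands of NK cell receptors 3 were listed. SLAMF7, which binds itself on NK cells, rose 20.9-fold to 131 normalized counts, and CEACAM1, an adhesion molecule that can inhibit NK cells, 14.3-fold to 343. ICAM1, the ligand of the integrin LFA-1, had 86.0 mean counts with DMSO and 20.9 with mitoxantrone and a log2 fold change of -2.06. PVR, NECTIN2, HLA-E and the other 10 were not listed.

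Among 15 genes of the interferon receptors, JAK kinases, STAT and IRF factors and their inhibitors, 4 were listed. Of these 1 was higher and 3 were lower, beside 41.1% lower over the table. The median of the 4 was -1.08 (log2), beside 1.20 over the table and -1.52 for its lower genes. SOCS3, a feedback inhibitor of JAK signalling, fell by 2.92 on the log2 scale, and PTPN2, a phosphatase that acts on JAK and STAT proteins, by 1.13. JAK2, on chromosome 9 like CD274, fell by 1.02 and STAT3 rose by 1.06 on the log2 scale. With 2-fold as the null (edgeR, glmTreat), neither JAK2 nor STAT3 passed, at adjusted p = 0.21 and 0.072. IFNGR1, IFNGR2, JAK1 and IRF1 were not listed.

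Of 19 transcription factors and damage kinases linked in earlier work to these ligands, 11 were listed, and 11 of 11 were lower. Beside them, 41.1% of the whole table was lower. The list was chosen with earlier results of these data known, so the count is a description. The median of the 11 genes was -2.03 (log2), beside 1.20 over the table and -1.52 for its lower genes. The largest falls were in EGR1, an immediate early factor (-5.89), E2F1, a driver of S phase entry (-3.86), and the stress factors DDIT3 (-3.33) and ATF3 (-3.31). EZH2, a histone methyltransferase, was at -2.45, MYC at -2.03, JUN at -1.77 and the checkpoint kinase gene CHEK1 at -1.71. ATF4, singled out after its value was seen, had 10013, 10288 and 9571 normalized counts with DMSO and 4445, 4118 and 4091 with mitoxantrone, a 2.36-fold fall (log2 fold change -1.24 ± 0.06 SE; edgeR, adjusted p = 1.1e-21). Whether any of these 11 falls bears on the ligand genes was not tested. ATM, ATR, HIF1A and RELA were not listed. None of 14 genes that handle PD-L1 protein or shed ligands, such as CMTM6, ADAM10 and ADAM17, was in the table.

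**Figure D4:**
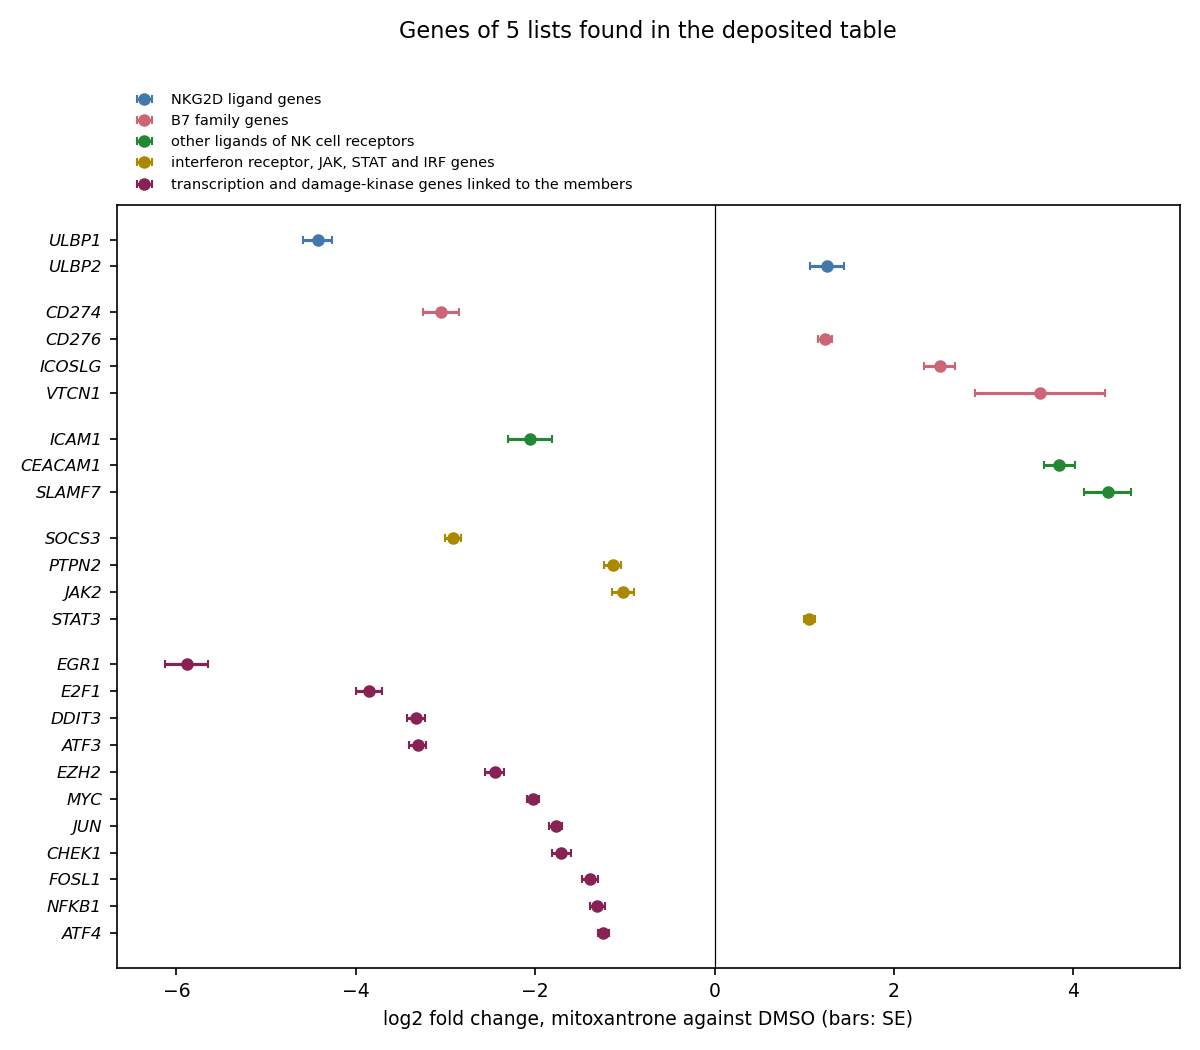
Points give the log2 fold change, mitoxantrone against DMSO, with its SE, for the genes of 5 lists found in the deposited table. The 11 listed transcription and damage-kinase genes lie left of 0, from EGR1 at -5.89 to ATF4 at -1.24, while the ligand genes lie on both sides.

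The genes most like each member were those with the smallest root mean square difference in log2(normalized count + 1) over the 6 libraries, after centring each gene, out of 3610 with a mean of at least 10. For CD274 they were TUBE1, which encodes epsilon tubulin (difference 0.145), AREG, a growth factor that binds the EGF receptor (0.163), and the zinc finger gene ZFP3 (0.168). AREG went from 633 ± 58.0 to 86.4 ± 8.86 normalized counts. For ULBP1 they were PHGDH, the first enzyme of serine synthesis (0.129), PRC1, of the cytokinetic midzone (0.173), and the spindle factor TPX2 (0.179). PHGDH went from 4704 ± 249 to 200.2 ± 19.8. For ULBP2 they were RAB26, a small GTPase gene (0.061), AKR1B10, an aldo-keto reductase gene (0.084), and CYP4F11, a cytochrome P450 gene (0.085). For VTCN1 they were RP11-818F20.5, which has no description in the table (0.224), TRIM74 (0.238) and CCL26, the chemokine eotaxin-3 (0.265), and with 36 reads this ordering has little precision. Most of each profile is the step between groups, so likeness here is mainly likeness in fold change. The mean of VTCN1, 6.68, was itself under the limit of 10, so genes at its level were not candidates. The added count of 1 also shrinks the step of a gene as low as VTCN1.

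Leukocyte markers were looked for because leukocytes also make PD-L1. Of 10, CD8A, CD14 and ITGAX were listed, all higher, beside 58.9% higher over the table. Their summed level was 0.87 to 1.04 FPKM with DMSO and 3.85 to 4.14 with mitoxantrone. PTPRC, CD3E and KLRK1, the NKG2D gene, were not listed. Of 5 endothelial markers CDH5 and VWF were listed, at a sum of 0 to 0.01 FPKM with DMSO and 0.11 to 0.12 with mitoxantrone, the same order of size as VTCN1. With mitoxantrone the leukocyte sum, of which CD14 made up 2.64 FPKM on average, was near the ULBP2 mean of 3.75 FPKM. It was above the means of ULBP1 (0.37), CD274 (0.29) and VTCN1 (0.21). All libraries were labelled A549, and whether another cell type was present was not tested. Any link of CDH5 and VWF to the VTCN1 result was not tested. Of 5 fibroblast markers COL1A1 was listed, and it was lower.

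Each of the 4 genes kept its direction and passed an adjusted p of 0.05 under every alternative processing that could be fitted to it. The sizes moved most on the log2(FPKM + 1) scale, which understates changes of low genes: limma gave -1.47 for CD274, -2.79 for ULBP1, 0.83 for ULBP2 and 0.25 for VTCN1. All 4 had passed a threshold on the same reads, so this steadiness is no independent support.

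**Figure D5:**
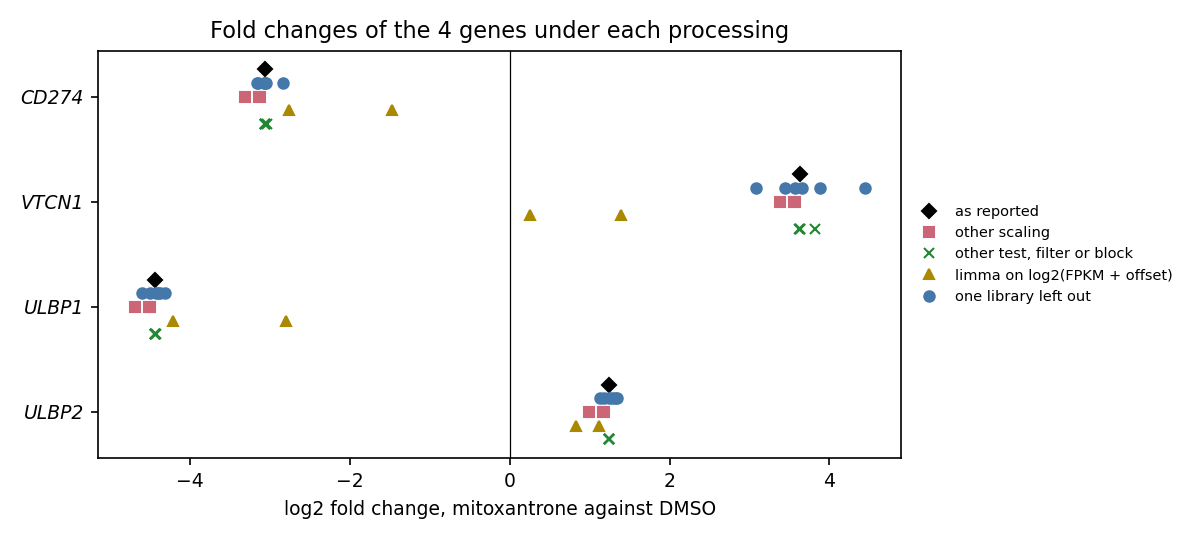
Log2 fold changes of the 4 genes as reported (diamonds) and under other processing: 1 library left out, other library scaling, limma on log2(FPKM + offset), and another test, filter or replicate block. No point crosses 0; VTCN1 ranges from 0.25 to 4.44 and ULBP2 from 0.83 to 1.35.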

How the data were processed

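One deposited table of the whole series was used. Tools in the submitters' processing notes are HISAT2 2.0.1, cutadapt 1.9.1, SAMtools 0.1.19, Cufflinks 2.2.1, HTSeq 0.6.1 and DESeq2 without a version. The genome build is not given in the sources used here. Per the file headers, the authors deposited raw counts and FPKM values per gene and library. Per the file headers they also deposited a mean normalized count (a signal, counts divided by size factors), a log2 fold change with its standard error, their quotient as a score, and raw and adjusted p-values.

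Size factors were recovered from counts and deposited means (largest relative residual 4.8e-10), and library totals from genes with FPKM of at least 20. edgeR 4.0.16 (R 4.3.3) fitted mitoxantrone against DMSO on all 4546 genes by the quasi-likelihood F-test, with Benjamini-Hochberg adjustment, no filter on low counts and no covariate; SE is the log2 fold change divided by the square root of F. The fit was also run on simulated counts in which most genes did not change. Every gene of this table had been selected as changed, so that run does not measure the error rate here. Groups and replicate numbers came from sample titles. Ratios used an exact permutation test (scipy 1.17.1). Alternatives were other scalings, DESeq2 1.42.0, limma 3.58.1, filters, thresholds, left-out libraries and a replicate block. Intervals cover counting error only and leave out the spread between libraries. No molecular identifiers are named, so reads copied from the same molecule could not be merged.

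The genes, lists and motifs were chosen with earlier results of these data known. From each list the genes found were named, at most 8 by size of change, and for each of the 4 genes the 3 most alike. Symbols were matched with older names where lists gave them. A few genes of the lists are not reported here and were left out of the list counts.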

Additional observations from a re-analysis of the deposited data

How the results depend on the processing

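No fold change or ratio changed direction or crossed its threshold under any alternative run. The number of genes higher with mitoxantrone went from 2677 to 1180 when genes whose mean normalized count was under 50 were left out, a filter added after seeing the data; fewer genes were tested there (2622, of which 45.0% were higher in place of 58.9%). The genes lower were then 1442 in place of 1869. TMM scaling, computed on the listed genes alone, moved the median gene by -0.26 log2, library totals by -0.08 and column totals by -0.06. Relative to that shift the 4 genes moved little. With 1 library left out, log2 fold changes ran from -3.16 to -2.83 for CD274, from 3.09 to 4.44 for VTCN1, from -4.59 to -4.30 for ULBP1 and from 1.13 to 1.35 for ULBP2. The ULBP1 to ULBP2 ratio difference ran from -5.88 to -5.47, and that of CD274 to VTCN1, -6.53 as planned, from -7.13 to -5.67, where the 3 VTCN1 reads with DMSO set the limit; neither ratio can pass 0.05 with 3 against 3 libraries. The replicate numbers did not pair the libraries (their deviations correlated at -0.07, -0.07 and 0.03 across 2622 genes). With the replicate block, edgeR gave -3.03 for CD274, 3.62 for VTCN1, -4.42 for ULBP1 and 1.25 for ULBP2, and no call changed. VTCN1 has no value under the filter of 10 counts in 3 libraries, which removes it.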

Other observations

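Annotation terms carried by the 4 genes were counted over the table after the main results were seen, with no test, beside 58.9% higher and 41.1% lower over the table. Natural killer cell mediated cytotoxicity, a term of ULBP1 and ULBP2, was held by 6 listed genes, 4 higher and 2 lower. T cell costimulation, a term of CD274, was held by 9 listed genes, 7 higher and 2 lower. Their median was 2.03 (log2), beside 1.20 over the table and 1.87 for its higher genes, and CD274 was on the lower side. Immune response, also a term of CD274, was held by 71, of which 51 were higher and 20 lower. Negative regulation of T cell proliferation was held by 7, 2 higher and 5 lower.

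Genes looked for beside the 4 on their chromosomes were mostly not listed, and 41.1% of the table was lower. Near CD274, 2 of 14 were in the table and both were lower, JAK2 and UHRF2 (-1.25). Near ULBP1 and ULBP2, 3 of 12 were listed and all 3 were lower, LATS1 (-1.35), KATNA1 (-1.69) and RAET1K (-1.37). Near VTCN1, 1 of 14 was listed, FAM46C, which was higher at 2.28 (SE 0.63) from 9 reads with DMSO and 36 with mitoxantrone.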
